A study of Mus musculus with 10 samples.

Results

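Ribosomal protein pseudogenes were taken as the table entries whose symbol starts with Rpl or Rps and a digit and contains "-ps", with an FPKM above 0 in at least 1 of the 10 libraries. FPKM is fragments per kilobase of transcript and per unit of sequencing depth, so that levels of genes of different length can be compared. Of 35663 entries, 293 had such a symbol, 61 of them were listed at 0 in all libraries, and 232 were detected. The 232 entries carried 230 distinct symbols (Rpl17-ps1 and Rpl18-ps1 occur on more than 1 entry) and belonged to 55 parent genes, the parent being the gene named before "-ps" (Rpl36a for Rpl36a-ps2).

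The libraries came from whole kidneys dissected from mouse embryos at E13.5, on the strain the labels give as C57/b6, and were made to ask which transcripts change when the secreted guidance protein Ntn1 is lost from the kidney stroma. They comprised 4 wild-type libraries, 3 libraries of Foxd1GC control kidneys (labelled Foxd1-Cre) and 3 libraries of Ntn1SPKO kidneys (labelled Foxd1-Cre; Ntn1/cc). Foxd1GC is a GFP-Cre allele at Foxd1 that is active in stromal progenitors, and the paper's Discussion counts it as the loss of a Foxd1 allele. Control and Ntn1SPKO kidneys both carry Cre and so share this difference from wild-type. In Ntn1SPKO kidneys the conditional Ntn1 alleles recombine in the stromal lineage. Other cell types of the kidney keep the gene, embryo sex is not given in the labels, and the labels do not say whether libraries of a group came from separate litters, so p-values measure the spread between these libraries.

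Ribosomal protein genes encode the proteins of the small (Rps) and large (Rpl) ribosomal subunits, are among the most highly expressed genes of any cell, and have left many intronless copies in mammalian genomes through reverse transcription of their mRNA. Most of these processed pseudogenes are thought to lack a promoter of their own, although a copy inserted into an intron or beside an active gene can be transcribed. A short read from a copy that still matches its parent cannot be assigned to one of them from its sequence, and a quantification program divides such reads between the transcripts that share them by its own model.

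Ntn1, the targeted gene, was at 27.1 to 46.3 FPKM in wild-type, 24.2 to 51.4 FPKM in Foxd1GC control and 10.7 to 16.3 FPKM in Ntn1SPKO kidneys, so that the mutant libraries lay below the others. All 10 kidney markers examined were above 0 in every library, with summed levels of 377 to 426 FPKM. Control replicate 3 stood apart in some of them: Lhx1 was at 2.44 FPKM (9.01 to 27.5 in the other libraries), Ret at 4.09 (14.1 to 20.9) and Pax2 at 31.2 FPKM (45.5 to 71.6). Other kidney markers were highest in that library: Six2 at 96.4 FPKM (63.1 to 92.5), Cited1 at 70.1 (37.6 to 64.2) and Pecam1 at 33.3 (23.3 to 33.0). Markers of other tissues varied more: erythroid markers (10 of 10 above 0 in every library) summed to 4782 to 10821 FPKM in wild-type, 7961 to 18138 FPKM in control and 4907 to 18670 FPKM in mutant kidneys, and skeletal muscle markers (7 of 8 above 0 in every library) to 80.9 to 147, 40.8 to 754 and 6.88 to 52.1 FPKM, where 754 FPKM was also control replicate 3. Their part in the values of the pseudogenes was not tested. No 2 libraries held identical values.

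Of the 230 symbols, 224 matched a gene of GENCODE M21 (GRCm38 build), 216 under the same symbol and 8 through a RefSeq synonym. Rpl19-ps7, Rpl27a-ps4, Rpl37-ps1, Rpl7a-ps6, Rps15-ps3 and Rps2-ps8 were not matched. The annotation gave 211 of the 224 as processed pseudogenes, 7 as transcribed processed pseudogenes and 6 as protein coding, and 215 had 1 exon. They lay on 20 chromosomes, 24 of them on X and 8 on the chromosome of their parent. The annotation placed 159 outside other genes, 62 in an intron and 3 in an exon of another gene.

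The 4 sequences of the Rpl36a family are shown first because 2 of the 5 most abundant pseudogenes belong to it and are related to the parent in different ways. Rpl36a encodes a protein of the large subunit. Capitals mark bases that differ from the coding start of Rpl36a over its first 150 coding bases. Rpl36a-ps2 (chr3:145879020-145879169, plus strand, in an intron of Ddah1 read in the same direction) has no capital. Rpl36al is a separate gene for a closely similar protein, and Rpl36a-ps3 (chr6:136488807-136488956, plus strand, outside other genes) carries the capitals of Rpl36al.
Rpl36a: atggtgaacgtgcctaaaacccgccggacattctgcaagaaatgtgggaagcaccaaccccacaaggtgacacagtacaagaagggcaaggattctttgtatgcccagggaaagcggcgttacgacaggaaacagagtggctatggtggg
Rpl36a-ps2: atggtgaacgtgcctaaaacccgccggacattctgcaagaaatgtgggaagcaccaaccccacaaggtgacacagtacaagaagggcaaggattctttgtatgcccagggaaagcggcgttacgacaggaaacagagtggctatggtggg
Rpl36al: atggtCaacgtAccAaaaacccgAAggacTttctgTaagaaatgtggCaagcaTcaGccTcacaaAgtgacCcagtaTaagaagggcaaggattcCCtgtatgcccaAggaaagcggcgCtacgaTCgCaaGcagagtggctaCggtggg
Rpl36a-ps3: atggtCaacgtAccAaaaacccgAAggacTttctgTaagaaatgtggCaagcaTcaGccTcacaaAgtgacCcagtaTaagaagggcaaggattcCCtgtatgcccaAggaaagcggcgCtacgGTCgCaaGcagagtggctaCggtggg

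Over all 321 coding bases Rpl36a-ps2 differed from Rpl36a at 0 positions, Rpl36al differed at 39, and Rpl36a-ps3 at 40. Of these 40 bases of Rpl36a-ps3, 39 were the base of Rpl36al, and it differed from Rpl36al at 1 position. Rpl36a-ps3 is therefore named after Rpl36a but is closest to Rpl36al in sequence.

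The other highly abundant copies are shown to mark how few bases set them apart from their parents. Rps7-ps3 (a copy of the small-subunit gene Rps7, listed in the annotation as Gm6472, a transcribed processed pseudogene on the minus strand of X) differed from Rps7 at 4 of 651 bases, 3 of them in the coding part, and the last difference lay at base 158 of the copy. The stretch printed runs from the start codon on and was placed at chrX:152909941-152910120 by counting from the end of the gene. Rps7-ps3 was not among the copies with 1 exon, so this position is not certain. Rpl28-ps1 (chr1:128038569-128038688 printed, plus strand, in an intron of Zranb3 read in the opposite direction) matched the whole coding sequence of the large-subunit gene Rpl28. Rpl39-ps (chr15:102635038-102635188, 151 bases, plus strand) differed at 1 base from Rpl39, which encodes a very short protein of the large subunit. Capitals mark the bases that differ from the parent.
Rps7-ps3: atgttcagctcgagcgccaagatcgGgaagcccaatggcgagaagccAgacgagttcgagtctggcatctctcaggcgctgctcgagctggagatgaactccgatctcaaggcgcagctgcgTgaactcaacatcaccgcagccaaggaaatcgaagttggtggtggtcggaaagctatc
Rpl28-ps1: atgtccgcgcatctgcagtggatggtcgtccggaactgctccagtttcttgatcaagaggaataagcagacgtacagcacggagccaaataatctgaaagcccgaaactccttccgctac
Rpl39-ps: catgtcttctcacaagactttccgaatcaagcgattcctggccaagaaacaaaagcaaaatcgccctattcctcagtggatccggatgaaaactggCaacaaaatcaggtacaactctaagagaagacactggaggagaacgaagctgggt

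Rpl27-ps3, the remaining copy of the 5, was identical to the 411 coding bases of Rpl27 and lay outside other genes.

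5 of the 232 pseudogenes were listed at ribosomal protein levels, and together they held 93.4% of the summed mean FPKM of all members. Rps7-ps3, Rpl36a-ps2, Rpl28-ps1, Rpl27-ps3 and Rpl36a-ps3 had means of 260 to 1151 FPKM over the 10 libraries. The median pseudogene was at 0.354 FPKM (interquartile range 0.102 to 1.07), against 1626 FPKM for the median parent (1220 to 2224). Below the 5, Rpl39-ps followed at 44.7 FPKM, 7 members lay at 5 to 20 FPKM, 51 at 1 to 5, 32 at 0.5 to 1, 80 at 0.1 to 0.5 and 56 under 0.1 FPKM.

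Rps7-ps3 was at 918, 1065, 1521 and 915 FPKM in wild-type replicates 1 to 4, at 1205, 1075 and 1665 FPKM in the controls and at 1084, 1016 and 1047 FPKM in the mutants. Its parent ranged from 1244 to 2265 FPKM. The copy thus reached 53.6% to 91.9% of Rps7, with group means of 68.3% ± 13.2 (SD, n = 4), 82.9% ± 12.2 (n = 3) and 74.3% ± 6.97 (n = 3), and the ranges of all 3 groups overlapped.

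Rpl36a-ps2 was at 706, 781, 1165 and 742 FPKM in wild-type, 829, 859 and 852 FPKM in control and 939, 844 and 824 FPKM in mutant kidneys. Rpl36a itself was at 807 to 1254 FPKM, so the 2 identical coding sequences were listed at nearly equal levels. As a share of the parent the copy came to 89.6% ± 5.33 in wild-type (n = 4), 101% ± 4.32 in control (n = 3) and 105% ± 8.95 in mutant kidneys (n = 3). Every control and mutant library lay above every wild-type library in this share. The log2 ratio to Rpl36a was higher by 0.18 in control and by 0.23 in mutant than in wild-type libraries, each at the smallest p that an exact permutation test of 3 against 4 libraries can give (p = 0.0286, two-sided), while FPKM itself did not separate the groups (p = 0.97 and 0.83, exact).

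Rpl36a-ps3 was listed at 243, 238, 343 and 204 FPKM in wild-type, 244, 281 and 242 FPKM in control and 283, 235 and 286 FPKM in mutant kidneys. It came to 27.2% ± 1.54, 30.6% ± 1.02 and 32.3% ± 3.64 of Rpl36a in these groups (SD, n = 4, 3 and 3), and the control libraries again lay above all wild-type libraries (log2 difference 0.17, exact p = 0.0286). Set against Rpl36al, the gene it matches best (331 to 547 FPKM), it stood at 58.6% to 86.4%. Wild-type libraries were at 58.6% to 69.7% of Rpl36al, controls at 66.6% to 80.9% and mutants at 67.5% to 86.4%. The groups overlapped in this share.

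Rpl28-ps1 was at 592, 631, 973 and 702 FPKM in wild-type, 682, 693 and 738 FPKM in control and 712, 709 and 684 FPKM in mutant kidneys. With Rpl28 at 2709 to 4170 FPKM, the copy held a steady share of its parent, 23.2% ± 1.30, 24.0% ± 0.707 and 25.2% ± 0.508 (SD, n = 4, 3 and 3). The mutant share lay above the control share in every library, by 0.07 on the log2 scale, which is at the smallest p of 3 against 3 (exact p = 0.1).

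Rpl27-ps3 was at 494, 574, 892 and 487 FPKM in wild-type, 477, 456 and 576 FPKM in control and 586, 534 and 586 FPKM in mutant kidneys. Its share of Rpl27, a further gene of the large subunit, was 70.4% ± 12.8, 56.4% ± 3.53 and 79.8% ± 11.1 (SD, n = 4, 3 and 3). Mutant and control libraries did not overlap in this share (log2 difference 0.49, exact p = 0.1), and neither did Rpl27 itself, which was lower in the mutants by 0.31 on the log2 scale (exact p = 0.1), whereas the copy in FPKM overlapped (log2 difference 0.18, exact p = 0.2). A share of a pair of identical sequences can shift through either partner, and which of them carried the reads cannot be told apart from the sequences.

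**Figure D1:**
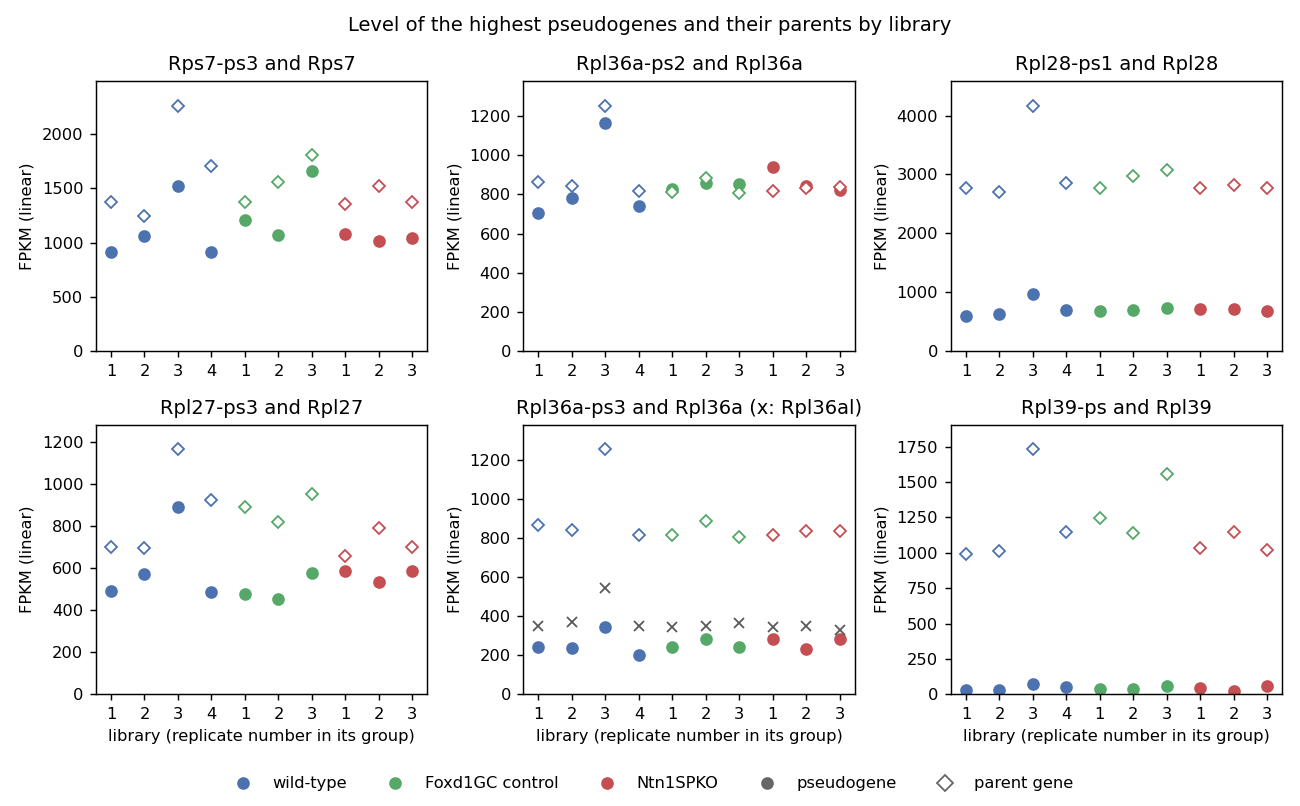
Level in FPKM (linear axis from 0) of 6 pseudogenes (filled circles) and of their parent genes (open diamonds) in each of the 10 libraries, coloured by group; crosses show Rpl36al. Parents and copies share the high value of wild-type replicate 3, Rpl36a-ps2 overlies Rpl36a in control and mutant libraries, and Rpl39-ps at 21.7 to 73.0 FPKM lies far below Rpl39.

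Over the 8 members with the highest means, 24 tests of the level and 24 of the ratio to the parent were run (8 members in 3 comparisons that share groups of libraries). The level was at the smallest possible p in 0 of 24 tests and the ratio in 5 of 24, namely those given above for Rpl36a-ps2, Rpl36a-ps3, Rpl28-ps1 and Rpl27-ps3. The p-values are not adjusted for the number of tests, and the ratio of Rpl36a-ps3 was to Rpl36a, not to Rpl36al.

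The 3 next members were far lower and did not separate the groups. Rpl39-ps was at 30.4, 32.0, 73.0 and 49.6 FPKM in wild-type, 38.5, 36.9 and 60.9 FPKM in control and 43.6, 21.7 and 60.3 FPKM in mutant kidneys, or 1.89% to 5.91% of Rpl39. Rpl15-ps6, a copy of the large-subunit gene Rpl15, was at 8.54 to 17.9 FPKM (0.456% to 0.695% of Rpl15). Rpl17-ps8, which lies in an intron of Heph and keeps the whole reading frame of Rpl17, was at 6.80 to 16.9 FPKM (0.505% to 1.30% of Rpl17).

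The read numbers behind these values could be estimated, because low FPKM values rise in steps of 1 read. They are the numbers assigned by the authors' quantification, and whether these had been rounded is not given. If so, a listed 0 could stand for a fraction of a read. For 222 members with an annotated transcript and 1 entry, 98.0% of the 1270 values above 0 and up to 20 reads came out within 0.1 of a whole read. The steps put the divisor of the FPKM at a rough 26.4 to 31.7 M reads per library (M, 1e6), lowest in control replicate 3 and mutant replicate 3. Most members rested on a handful of reads. The median was 2.3 reads per library, 181 members (81.5%) had a mean under 10 reads, and 82 never exceeded 3 reads in any library. Counting error alone is then a large part of the value, and near 1 read it is of the size of the value.

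Only 8 members averaged 100 reads or more. Rps7-ps3 had 10719 to 18852 reads per library, Rpl28-ps1 3008 to 4946, Rpl27-ps3 2253 to 4453, Rpl36a-ps2 1560 to 2592 and Rpl36a-ps3 428 to 762. Below them were Rps2-ps10, a copy of the small-subunit gene Rps2, with 87 to 258, Rpl17-ps8 with 75 to 180 and Rpl15-ps6 with 92 to 171.

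FPKM and reads ranked short members differently. Rpl39-ps, with 151 bases the shortest transcript, was the sixth member by FPKM but had 4 to 14 reads in a library, since 1 read was worth 5.07 to 6.09 FPKM there. For Rpl36-ps10 and Rpl38-ps1, 1 read was worth 2.61 to 3.18 FPKM, and their 0 to 10.4 FPKM and 0 to 8.47 FPKM came from 0 to 4 and 0 to 3 reads. Rps2-ps10 averaged more reads (151) than Rpl15-ps6 (119) and Rpl17-ps8 (121) but, at 965 bases, had a lower mean of 7.20 FPKM than either (11.2 FPKM each).

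**Figure D2:**
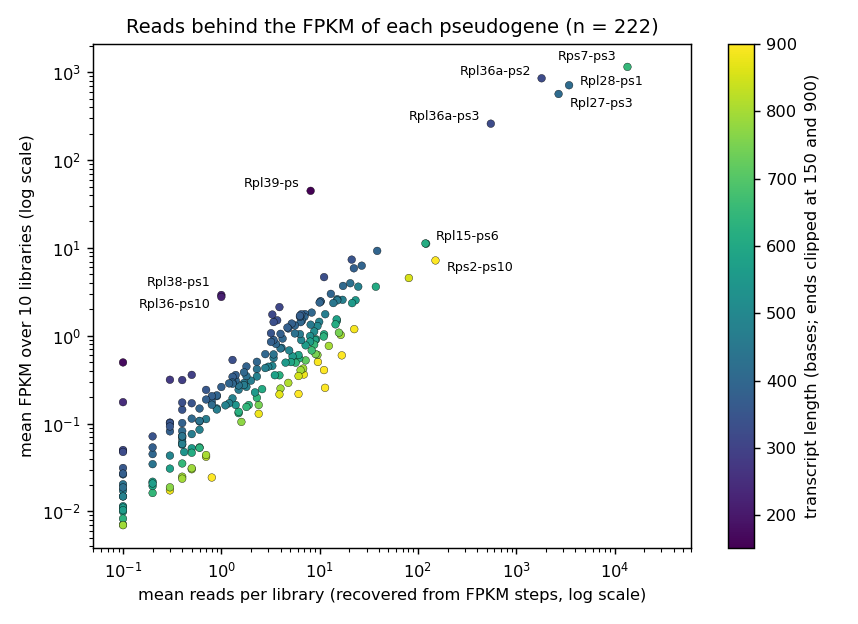
Mean FPKM over the 10 libraries (vertical, log scale) against the mean number of reads per library recovered from the FPKM steps (horizontal, log scale) for 222 pseudogenes, coloured by transcript length in bases. The 5 highest members stand apart at the upper right, and the short members Rpl39-ps, Rpl38-ps1 and Rpl36-ps10 lie above the others at the same number of reads.

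Next, the level was set beside how much of each copy can be told from its parent. The transcript of each member was cut into overlapping words of 31 bases, and the words also found in a transcript of the parent were counted. The median member shared 41.5% of its words with the parent (222 members, 0% to 100%) and aligned to it at 96.7% identity (64.7% to 100%), with 140 of 223 aligned members at 95% or more. The ribosomal protein gene with the most shared words was the parent of the symbol for 214 members and another gene for 3, among them Rpl36a-ps3 with Rpl36al. The other 7 had no such word in any ribosomal protein gene.

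Members with no base to tell them from the parent were listed high. The 3 members with 100% of their words in the parent, Rpl36a-ps2, Rpl28-ps1 and Rpl27-ps3, were at means of 566 to 854 FPKM. The 29 members at 80% to under 100% had a median of 0.928 FPKM, the 59 at 50% to under 80% 1.04 FPKM, the 67 at 20% to under 50% 0.284 FPKM and the 56 above 0% to under 20% 0.0536 FPKM. The 8 members without a shared word had a median of 0.0607 FPKM, although Rpl36a-ps3, at 260 FPKM, is one of them through its match to Rpl36al. Levels differed widely at a like degree of sharing: of 14 members with no word that is absent from all other genes, 3 exceeded 200 FPKM and the lowest was at 0.0450 FPKM. Points in such a comparison share libraries and read assignment, and no test was made of it.

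Rps7-ps3 stood apart from the identical copies, as 98 of its 621 words were in no other gene. Members with over 100 words of their own (146) had a median of 0.191 FPKM and none exceeded 6.28 FPKM. The reading frame also differed between low and high members. The 77 members whose longest frame is at least 95% of the parent's length had a median of 0.584 FPKM and held all 5 members above 200 FPKM. The 11 members whose longest frame gives the parent's protein had a median of 1.43 FPKM (0.0474 to 854), and the 92 whose frame is under 50% of the parent's length had 0.195 FPKM. The 61 members in an intron of another gene had a median of 0.618 FPKM and the 158 outside other genes 0.267 FPKM. Within introns, the 23 on the strand of the host had 0.717 FPKM and the 38 on the opposite strand 0.411 FPKM.

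**Figure D3:**
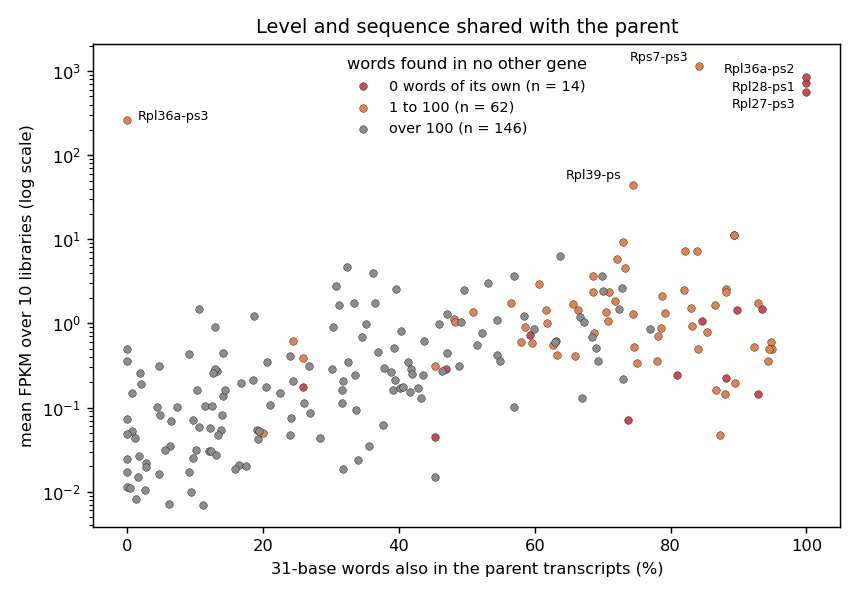
Mean FPKM over the 10 libraries (log scale) of 222 pseudogenes against the percentage of their 31-base words that also occur in transcripts of the parent. Colours give the number of words found in no other gene; the 3 members at 100% lie above 500 FPKM, and Rpl36a-ps3 lies at 0% and 260 FPKM.

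By family, copies were a sizeable part of the listed signal in a few genes only. Members made up 56.0% of the summed FPKM of parent and copies for Rpl36a, 42.4% for Rps7, 40.7% for Rpl27, 19.4% for Rpl28, 3.56% for Rpl39, 1.25% for Rpl17 and 1.22% for Rps15a. The Rpl36a members averaged 1117 FPKM in sum, and this includes Rpl36a-ps3 at 260 FPKM, which is closest to Rpl36al in sequence. In the 48 families not named here the share had a median of 0.105% (0.00165% to 0.706%). The 14 families with 1 member had a median share of 0.0480% (0.00165% to 3.56%), the 9 with 2 members 0.0664%, the 21 with 3 to 7 members 0.133% and the 11 with 8 or more 0.466% (0.176% to 1.25%). The 4 families above 10% were among those with 3 to 7 members. Rpl31 had the most members, 17, which came to 0.432% of its family, and the 15 members of Rps12 came to 0.442%. No test was made of these shares.

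Pseudogenes varied far more between libraries than their parents. Over the 96 members with a mean of at least 0.5 FPKM, the median SD over the 10 libraries was 0.74 on the log2(FPKM+0.1) scale. It was 0.20 for the 55 parents, 0.53 for 88 pseudogenes of other genes and 0.19 for all genes above that floor. These lists were not matched for level. The median SD of members fell with their level, from 0.95 at 0.5 to 1 FPKM to 0.61 at 5 to 20 FPKM. The 5 highest members had a median of 0.21, close to the parents. The widest ranges included members with more than 50 reads in a library. Rps15a-ps7 had 41, 62, 92 and 18 reads in wild-type, 34, 11 and 37 in control and 0, 7 and 83 in mutant libraries. Rpl17-ps3 had 53, 16, 48 and 6, then 0, 42 and 43, then 7, 17 and 0 reads. For Rps15a-ps7 high and low libraries occurred within the wild-type and mutant groups. For Rpl17-ps3 they occurred within the wild-type and control groups, and the 3 mutants were low. The groups overlapped in both. Rps13-ps4 (0 to 29 reads), Rpl36-ps2 (0 to 11), Rpl36-ps10 and Rpl38-ps1 were the other 4 with the widest range. Of the 41 members with a mean of at least 10 reads, 4 were listed at 0 in a library (chosen after their values were seen): Rps15a-ps7, Rpl17-ps3, Rpl3-ps1 and Rps13-ps4.

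Wild-type replicate 3 carried more ribosomal protein signal than the rest, in copies and parents alike. The members summed to 5250 FPKM in it and to 3172 to 3514 FPKM in the other wild-type libraries, 3594 to 4365 FPKM in control and 3541 to 3837 FPKM in mutant libraries. Ribosomal protein genes summed to 208504 FPKM there against 130616 to 161659 FPKM in all other libraries, and the table as a whole to 1002640 against 795829 to 874966 FPKM. It was the highest library for 30 of 96 members (31.2%), 52 of 55 parents and 21.5% of all genes. It was also the highest for 71 of 78 mitochondrial ribosomal protein genes and for 23.9% of 88 pseudogenes of other genes. The high values were thus not particular to cytosolic ribosomal protein genes and their copies. Relative to the parents the members were level: they came to 3.51% to 4.23% of the parents' summed FPKM in the 10 libraries, with 3.77% in wild-type replicate 3.

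The 3 genotype comparisons were then made with limma on log2(FPKM+0.1) over every gene that averaged 0.5 FPKM or more, with Benjamini-Hochberg adjustment. Calls needed a change of 2-fold or more and an adjusted p below 0.1. In bulk kidneys, fewer cells of a type and less RNA per cell cannot be told apart. The filter kept 94, 98 and 98 of the 232 members, and the comparisons share libraries. The shares of all genes given beside members are not matched for level or spread. The median SD over the 10 libraries was 0.74 for members and 0.19 for all genes on the log2(FPKM+0.1) scale.

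No pseudogene was called in Ntn1SPKO against Foxd1GC control kidneys (0 of 94, where 0.0550% of all 14550 genes were called). The lowest adjusted p of limma was 0.140. At an unadjusted limma p under 0.1 and 2-fold or more, 7 members passed (7.45%, beside 2.30% of all genes). The median log2 fold change was −0.20 (36 members higher and 58 lower), against 0.01 for all genes, −0.08 for the 55 parents and −0.09 for pseudogenes of other genes. Groups did not overlap for 3 members that were higher and 7 that were lower, beside 11.0% and 8.91% of all genes tested. This balance changed with the scaling: after quantile normalization 7 members were higher and 5 lower without overlap (11.3% and 7.83% of all genes), and ribosomal protein genes went from 2 higher and 41 lower to 9 and 12. Among the parents, as deposited, groups did not overlap for 1 higher and 22 lower, with fold changes from −0.48 to 0.63. The median of the members was −0.09 after quantile normalization, −0.12 with a pseudocount of 1, −0.12 with no filter and −0.08 without control replicate 3, the library that stood apart in kidney and muscle markers.

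The members with the largest changes among those without overlap had few reads. Rps13-ps5, a copy of the small-subunit gene Rps13, had 0, 2 and 0 reads in control and 6, 4 and 6 in mutant kidneys, a log2 fold change of 2.62 (SE 0.70, limma adjusted p = 0.447), while wild-type libraries covered 0 to 8 reads. Rps15a-ps4 had 5, 11 and 6 reads in control, 12, 17 and 16 in mutant and 5 to 10 in wild-type libraries, so that the mutants lay above both other groups (log2 fold change 1.03, SE 0.31, adjusted p = 0.447 against control and 1.13, SE 0.26, adjusted p = 0.327 against wild-type). Rps12-ps5 followed with 0.74 (SE 0.20).

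On the lower side, Rpl37-ps1, a copy of the large-subunit gene Rpl37, was at 1.21, 1.16 and 1.34 FPKM in the controls and listed at 0 in the 3 mutants. Its log2 fold change was −3.74 (SE 0.45, limma adjusted p = 0.140), but wild-type libraries were at 1.11, 0, 2.29 and 1.21 FPKM, so a listed 0 also occurred there. Its transcript length was not matched, and it has no read estimate. The fold change depends on the pseudocount, since the mutants are at 0. Rps12-ps21 changed by −2.34 (SE 0.94) and Rpl36a-ps1 by −1.58 (SE 0.57), from 19, 17 and 38 reads to 14, 9 and 3, each with an adjusted p of 0.447. Leaving out control replicate 3 led to a call for Rpl38-ps1 (5.44, adjusted p = 0.0627, on 0 to 3 reads), and leaving out mutant replicate 3 to one for Rpl35a-ps2 (−4.53, adjusted p = 0.0698, on 0 to 9 reads). Without the filter, Rps19-ps13 was called higher in the mutants (limma adjusted p = 0.0936, on 1 read in each).

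Against wild-type kidneys, Ntn1SPKO showed 0 called members of 98 (0.0485% of 14432 genes) and a lowest adjusted p of 0.247 (limma). At an unadjusted limma p under 0.1 and 2-fold or more, 12 members passed (12.2%, beside 1.39% of all genes). The median was −0.09 (38 higher, 60 lower) beside 0.00 for all genes and −0.13 for the parents. Groups did not overlap for 1 higher and 4 lower members, beside 3.56% and 3.54% of all genes. Rps19-ps2, a copy of the small-subunit gene Rps19, had 6, 4, 5 and 8 reads in wild-type and 2, 1 and 1 in mutant kidneys (−1.67, SE 0.34, limma adjusted p = 0.247). Rpl17-ps4 (−1.15, SE 0.39) and Rpl17-ps9 (−1.13, SE 0.32) were the others named by the rule, the latter with 33, 24, 34 and 24 reads against 22, 8 and 9.

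Foxd1GC control and wild-type kidneys differ in the Cre allele and, with it, in the loss of a Foxd1 allele. Control against wild-type gave 0 called members of 98 (0.00685% of 14594 genes) and a lowest adjusted p of 0.665 (limma). At an unadjusted limma p under 0.1 and 2-fold or more, 8 members passed (8.16%, beside 1.42% of all genes). The median was −0.11 (38 higher, 60 lower) beside −0.01 for all genes and −0.04 for the parents. Groups did not overlap for 1 higher and 2 lower members, beside 4.04% of all genes in either direction. Rpl30-ps10 had 12, 21, 25 and 12 reads in wild-type and 33, 30 and 23 in control kidneys (0.85, SE 0.28), with 26, 21 and 9 in the mutants. Rps12-ps2 changed by −2.52 (SE 0.70) and Rpl5-ps2 by −0.56 (SE 0.23), the latter from 31, 29, 28 and 31 reads to 20, 14 and 22. The limma adjusted p was 0.665 for all 3.

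Values against wild-type depended on wild-type replicate 3. Without it the median was 0.06 for Ntn1SPKO and 0.06 for Foxd1GC control, above 0 in place of −0.09 and −0.11. Rps24-ps2, a copy of the small-subunit gene Rps24, had 13 reads in that library, 2 in each of the other wild-type libraries, 9, 11 and 8 in control and 8, 8 and 7 in mutant kidneys. Without that library it was called higher in both comparisons (log2 1.81, limma adjusted p = 0.0361 for Ntn1SPKO and 2.07, adjusted p = 0.0749 for control), and with it the groups overlapped. Rpl14-ps1, a copy of the large-subunit gene Rpl14, had 0 reads in the 4 wild-type libraries, 24, 0 and 25 in control and 0, 10 and 29 in mutant kidneys, and was called in control against wild-type only without control replicate 2 (4.52, adjusted p = 0.0761). Both were singled out after their values were seen.

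**Figure D4:**
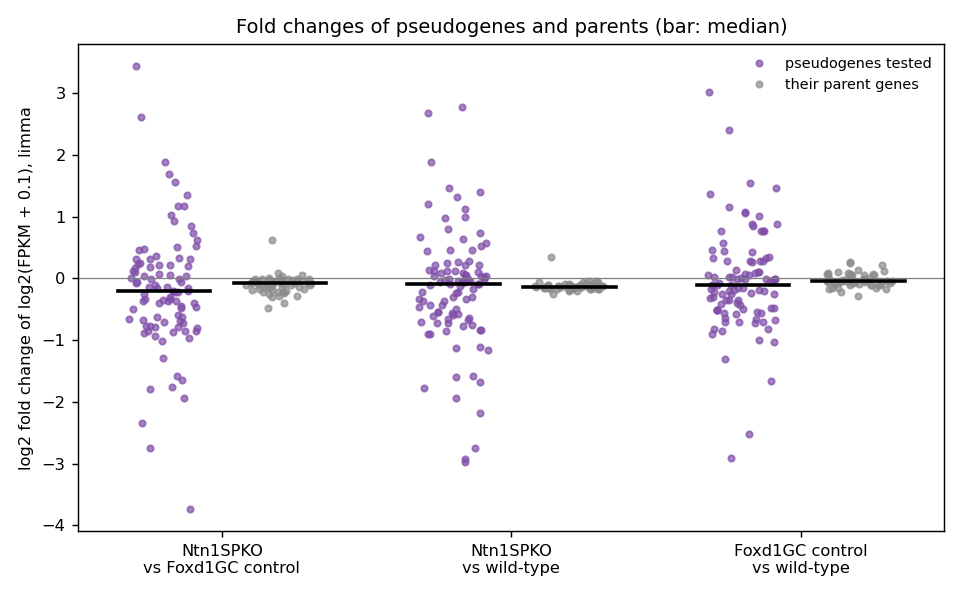
Log2 fold changes on the log2(FPKM+0.1) scale of the pseudogenes tested (94, 98 and 98, purple) and of their 55 parents (grey) in the 3 comparisons, with the median as a bar. Pseudogenes spread from −3.74 to 3.44 around medians of −0.20, −0.09 and −0.11, whereas parents stay between −0.48 and 0.63.

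The parent with the largest change had almost no pseudogene signal. Rpl26, of the large subunit, was at 1170, 1236 and 1210 FPKM in control and at 1847, 1918 and 1816 FPKM in mutant kidneys, without overlap, a log2 fold change of 0.63 (SE 0.05, limma adjusted p = 0.0315) that is under the 2-fold limit. Wild-type replicates 1 to 4 were at 1143, 1181, 1824 and 1858 FPKM and covered both levels. The value of 1824 FPKM was in replicate 3, where most parents were high. There the parents lay above the other wild-type libraries by a median of 0.60 on the log2 scale. The 3 copies of Rpl26 summed to 0 to 0.543 FPKM in any library.

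A listed 0 was frequent, and for 6 members (2.59% of 232) it held throughout 1 group while another group was above 0 throughout. The same pattern was present in 0.796% of all genes above 0 in a library and in 3.70% of the 378 pseudogenes of other genes. Of the 232 members, 79 were above 0 in all libraries, 153 were at 0 in 1 to 9 libraries and 27 in 9 of them. Rps12-ps21 and Rpl10a-ps2 were at 0 in every wild-type and above 0 in every control library. Rps12-ps22 and Rpl13-ps6 showed the opposite order, at 0 in every control and above 0 in every wild-type library. Rps12-ps22 and Rps19-ps13 were at 0 in all controls and above 0 in all mutants, and Rpl37-ps1, given above, at 0 in all mutants and above 0 in all controls. The 5 with a read estimate rested on 1 to 6 reads in any library above 0. Rpl10a-ps2 had 2, 1 and 2 reads in the controls, Rpl13-ps6 5, 5, 5 and 2 in wild-type kidneys, and Rps19-ps13 1 read in each mutant and 1 in wild-type replicate 3.

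The Rps12 copies are described together because 2 of these patterns were opposite in near-identical sequences. Rps12 encodes a small-subunit protein, and Rps12-ps20, Rps12-ps21 and Rps12-ps22 lie on X, have 402 bases each and differ from one another at 2 bases in all. Rps12-ps20 was added after its values were seen.

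Rps12-ps22 had 5, 2, 5 and 4 reads in wild-type, 0 in each control and 6, 2 and 4 in mutant libraries. Rps12-ps21 had 0 in each wild-type library, 4, 5 and 4 in the controls and 4 in mutant replicate 2 only. Rps12-ps20 had 4 reads in control replicate 1 and 4 in mutant replicate 2. Summed over the 3 copies, the reads were 5, 2, 5 and 4 in wild-type, 8, 5 and 4 in control and 6, 10 and 4 in mutant libraries, and the groups overlapped. The copy that was listed differed between wild-type and control libraries, while the sum did not separate the groups. Reads from the stretches in common cannot be told apart by copy. In the comparison of control with wild-type kidneys, with no filter on low values, Rps12-ps21 was called higher (log2 3.44, limma adjusted p = 0.0019) and Rps12-ps22 lower (−3.19, adjusted p = 0.0497), values that depend on the pseudocount since 1 group is at 0. In all, 12 pairs of members shared at least 80% of their words, and 15 members were in such a pair.

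**Figure D5:**
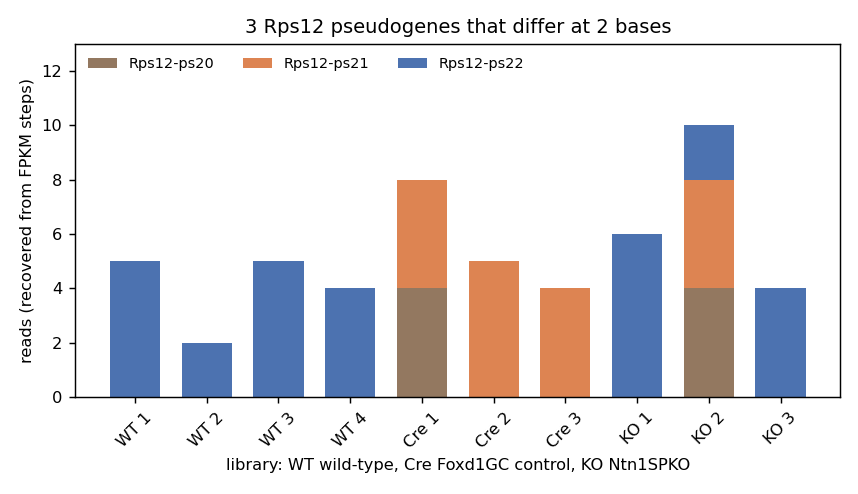
Reads per library recovered from the FPKM steps for Rps12-ps20, Rps12-ps21 and Rps12-ps22, stacked. Rps12-ps22 alone appears in the 4 wild-type libraries and Rps12-ps21 in the 3 controls, while the stacks reach 2 to 10 reads with overlap between the groups.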

How the data were processed

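RNA-seq of whole E13.5 kidneys was used from 10 libraries, grouped by the labels. Per the paper's methods, the authors quantified reads with Salmon on an index of Ensembl GRCm38 coding sequences, used tximport for import and DESeq2 for testing. The submitters' processing notes also name bcl2fastq 2.17.1.14. The deposited values are FPKM made by the authors. How they were computed is not given in the sources used here, and the table holds pseudogene entries although the methods describe a coding-sequence index. Median-of-ratios factors were equal in all libraries (1.00), so library scaling was left as deposited. The authors' counts were not used here. Columns without a sample numbered 0.

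Members and lists were chosen with earlier results of these data known. limma 3.58.1 (R 4.3.3, eBayes with an intensity trend) was fitted on log2(FPKM+0.1) for every gene averaging 0.5 FPKM or more in the libraries of both groups together, with Benjamini-Hochberg adjustment over all genes. The same steps were tested on simulated data. Alternatives were other pseudocounts, filters, scalings, eBayes settings and thresholds, all libraries in 1 fit, a replicate block, copies summed with their parent, and leaving out each library. Single values were compared with two-sided exact permutation tests, whose smallest p is 0.1 for 3 against 3 and 0.0286 for 3 against 4 libraries. Fold changes on this scale understate the change of low genes. Transcripts were those of GENCODE M21 (GRCm38), aligned locally with Biopython 1.88 (match 1, mismatch 1, gap 3 and 1). Reads were estimated from the smallest FPKM steps of 2204 genes, at the length of each member. Named members were those called, the 8 highest by mean, the 6 with the widest range, the 4 with the highest ratio to the parent, up to 3 in each comparison and direction with the largest change without overlap, and those at 0 throughout 1 group and above 0 throughout another, with their parents. Replicate numbers did not pair the libraries: deviations of same-numbered libraries correlated at −0.04 to 0.08. Some sequences are not reported here.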

Additional observations from a re-analysis of the deposited data

Results flagged for a closer look

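Among 52 sets of 4 wild-type values (the members with a test and their parents, and sums per library), 12 had a library far from the other 3 by Dixon's limit for the gap over the range. Chance alone gives about 1 in 20 for a single set. The sets share libraries, and the sums hold the single members and parents, so the 12 are not independent and cannot be set against that rate. Of the 12, 10 were in wild-type replicate 3. There, the members summed to 5250 FPKM (others 3172 to 3514), the members without the 5 highest to 356 FPKM (218 to 240), the parents to 139363 FPKM (87328 to 93786), the ribosomal protein genes to 208504 FPKM (130616 to 141153) and all genes to 1002640 FPKM (795829 to 809645). The same library had Rpl36a-ps2 at 1165 FPKM (706 to 781), Rpl36a at 1254 FPKM (815 to 864), Rpl28 at 4170 FPKM (2709 to 2855), Rpl17 at 2044 FPKM (1156 to 1295) and Rps19-ps13 at 0.169 FPKM, where the others were listed at 0. In wild-type replicate 4, Rpl13-ps6 was at 0.177 FPKM (0.408 to 0.428), and in wild-type replicate 1 the log2 ratio of Rpl36a-ps2 to Rpl36a was −0.29 (−0.14 to −0.11).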

How the results depend on the processing

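Under the alternatives that kept all libraries, 0 members were called in each comparison except as follows. The alternative at an unadjusted p took a limma p under 0.1 with a change of 2-fold or more. The shares of all genes are not matched to the members for level or spread. In Ntn1SPKO against Foxd1GC control kidneys, 1 was called with a pseudocount of 1, 2 with no filter, 1 without the intensity trend and 7 at an unadjusted p (1.06%, 0.913%, 1.06% and 7.45% of those tested, beside 0.0687%, 0.0921%, 0.0619% and 2.30% of all genes). Against wild-type, 12 were called at an unadjusted p for Ntn1SPKO (12.2%, all genes 1.39%), and 2 with no filter and 8 at an unadjusted p for Foxd1GC control (0.901% and 8.16%, all genes 0.0389% and 1.42%). Among the 13 members and comparisons named for their change, Rpl37-ps1 became called with a pseudocount of 1 (−1.16), no filter or no trend (both −3.74). None of the 13 changed direction over 212 alternatives. They were chosen for groups that do not overlap. Leaving out a library, or another pseudocount, filter or threshold, could therefore not reverse them. Members without overlap numbered 20 with no filter and 6 at a mean of at least 1 FPKM (10 as reported), 9 and 3 for Ntn1SPKO against wild-type (5), and 12 with no filter and 5 after quantile normalization for control against wild-type (3). Over all alternatives that kept the libraries, the median log2 fold change of members was −0.22 to −0.09 for Ntn1SPKO against control, −0.10 to −0.03 for Ntn1SPKO against wild-type and −0.19 to −0.05 for control against wild-type. After quantile normalization 3 ratio tests were at the smallest p (5 as reported). The median log2 ratio to the parent was −12.06, −12.24 and −12.16 in wild-type, control and mutant libraries. With a pseudocount of 1 it was −10.32, −10.27 and −10.23, and at a mean of at least 0.5 FPKM −10.37, −10.28 and −10.35. The summed FPKM was 3793 on average and 2642 without Rps7-ps3. Words of 21 bases raised the median share in the parent from 41.5% to 54.9%.

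Leaving out each library in turn gave 0 to 1 called members in each comparison, 16 to 23, 6 to 17 and 3 to 11 members without overlap (16.8% to 25.6%, 6.25% to 17.9% and 3.06% to 11.1% of members, beside 25.6% to 45.5%, 11.0% to 15.1% and 10.5% to 28.0% of all genes, since smaller groups overlap less), medians of −0.26 to −0.08, −0.22 to 0.06 and −0.20 to 0.06, 0 to 3 level tests and 2 to 8 ratio tests at the smallest p, a summed FPKM of 3631 to 3862 and 145 to 151 members at 0 in some libraries. Without wild-type replicate 3 the medians against wild-type turned to 0.0571 for Ntn1SPKO and 0.0617 for control. The level tests reached 3 without wild-type replicate 3, and the ratio tests fell to 2 without control replicate 2 and 3 without control replicate 3, and rose to 8 without wild-type replicate 2 or 4. The causes were not tested. The replicate block called 0 members in each comparison, with medians of −0.20, −0.09 and −0.10, and changed no call.

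Depth limits these results: most members had under 10 reads, and 0 differences called does not show that levels were equal.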
